A study of Mus musculus with 15 samples.

Results

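The 37 genes described here form the network of the tumour suppressor p53 in mouse cardiac endothelial cells: the p53 gene Trp53, the genes that control the protein, and genes that p53 is known to activate. They were taken by gene symbol from a table of 23337 genes. All 37 were in the table, and all 37 passed the filter on low counts that left 12471 genes for testing. Pmaip1, Zfp365, Ptprv and Psrc1 had 4, 17, 8 and 13 counts in all of WT sham and 31, 37, 15 and 34 in WT TAC. They passed the filter only with the help of KO libraries, so it favoured their calls as higher in KO. All of them are counted below as higher in KO after TAC, and Zfp365 and Psrc1 also after sham. The network was chosen by its measured levels in all 4 groups of these data, above all by the rise of many of its genes in KO TAC over KO sham, so the counts below describe these mice and are no independent test of the network.

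RNA was sequenced from CD31-positive, CD45-negative cells sorted from hearts 4 weeks after transverse aortic constriction (TAC), a narrowing of the aorta that overloads the left ventricle, or after a sham operation. All mice carried loxP-flanked STING alleles (STINGfl/fl). Those labelled EC STING KO, here KO, also carried Cad5CreERT2, a recombinase driven by the promoter of the endothelial cadherin gene, and those labelled WT lacked it (Cad5CreERT2-/-). The groups were 3 WT sham mice (131 to 133), 5 WT TAC mice (134 to 138), 3 KO sham mice (348 to 350) and 4 KO TAC mice (351 to 354), and the sources used here give neither their age and sex nor how Cre was activated. Because every KO mouse carries Cre and no WT mouse does, and because the mouse numbers of the genotypes come from separate series, the deletion, Cre itself and the series of mice cannot be told apart in any comparison of KO with WT. Values are listed below in the order of the mouse numbers.

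The p53 protein is a transcription factor that is held at low levels by the ubiquitin ligase Mdm2 and accumulates when DNA is damaged or ribosomes, replication or telomeres fail. It then activates genes that halt the cell cycle, repair DNA, change metabolism or kill the cell, and it activates Mdm2 itself, which closes a feedback loop. The protein is controlled mostly by stability and modification, so the level of its targets is commonly read beside the level of its own mRNA.

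Many genes of the network were higher in KO than in WT endothelium. More of them were called after TAC than after sham, as was the case over all genes, and the TAC groups held more mice. After TAC 28 of the 37 genes were higher and 4 lower in KO than in WT, by edgeR's quasi-likelihood test with an adjusted p under 0.05 over all 12471 genes. In the same comparison 14.8% of all genes were called higher and 15% lower. After sham 19 of 37 were higher and 2 lower, against 4.57% and 4.63% of all genes. In either direction 29.8% of all genes were called after TAC and 9.21% after sham. With the sham libraries fitted alone, 11 of the 37 were called after sham. That refit called 289 of all genes, beside 1148 in the fit of all 15 libraries. The median log2 fold change of KO against WT over the 37 genes was 0.89 after TAC and 0.56 after sham, beside -0.02 and -0.00 over all genes tested. In WT mice TAC changed 1 of the 37 genes, beside 2.59% of all genes. In KO mice TAC raised 15 and lowered 1, beside 4.65% of all genes called higher, 4.94% lower and 9.59% in either direction.

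**Figure D1:**
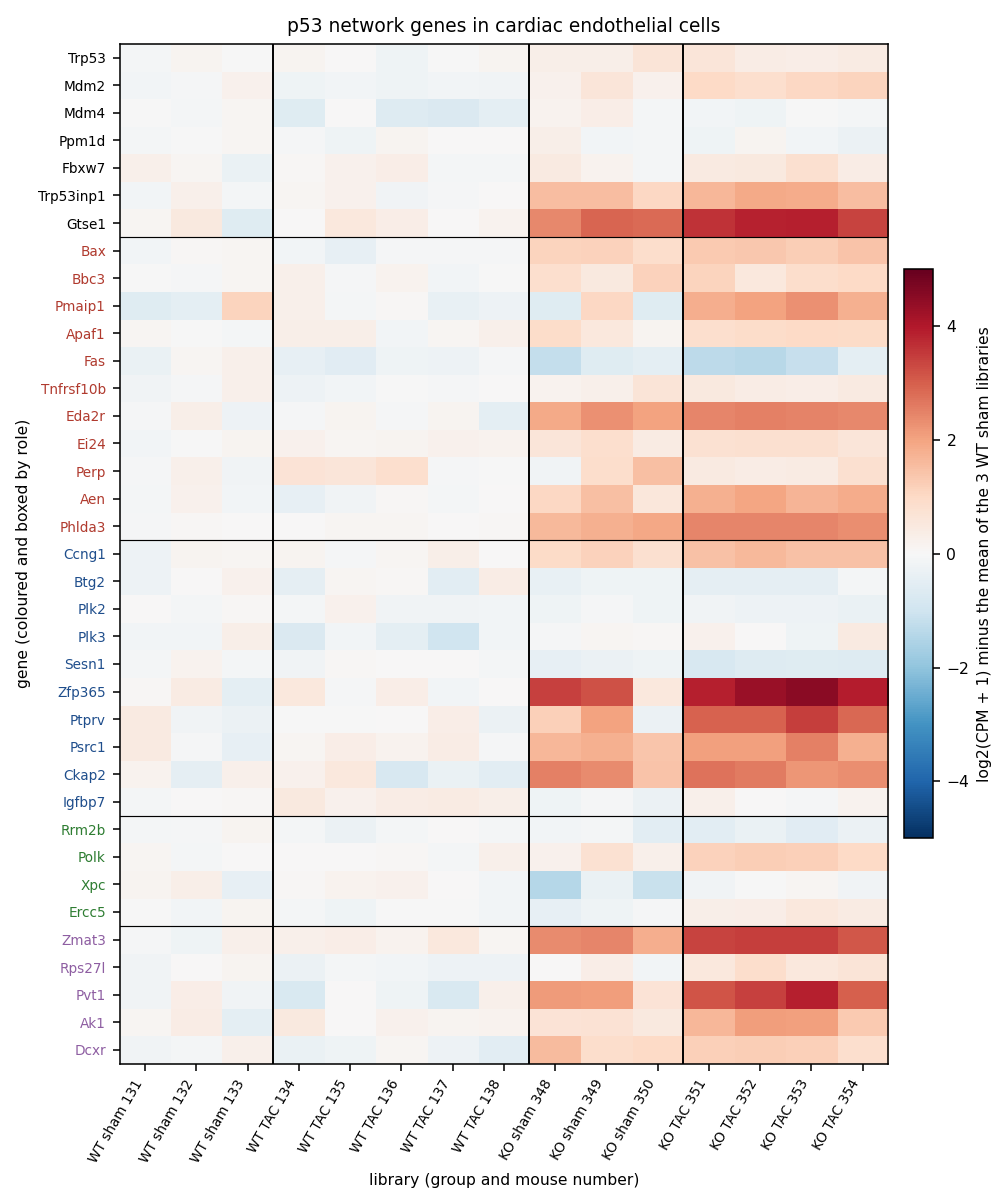
Level of each of the 37 genes (rows, coloured and boxed by role) in each of the 15 libraries (columns), as log2(CPM + 1) minus the mean of the 3 WT sham libraries. The red of rows such as Zmat3, Gtse1 and Eda2r begins at the KO sham libraries and deepens in the 4 KO TAC libraries, while the same rows are pale in WT TAC. The row of Zfp365 is alike except in KO sham 350, where it is pale at 1.03 CPM.

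Across libraries the data had a range of depths. Total counts ran from 1362346 (WT sham 133) to 15670319 per library, and 3 counts, used as the floor of detection, corresponded to 0.190 to 2.26 CPM, the number of counts scaled to a library of fixed size after TMM scaling. KO sham 348 and 350 stood apart: 209 and 325 genes had no count there although the rest of the libraries predicted 10 or more, against 3 to 28 such genes in the other 13 libraries. The targeted gene (Tmem173, also Sting1) lay at 17.3 to 31.4 CPM in the 7 KO libraries and at 53.9 to 82.0 CPM in the 8 WT libraries. The 10 endothelial markers summed to 13266 to 16462 CPM per library, with Cdh5 at 3333 to 4422 CPM. The 10 leukocyte markers summed to 7.14 to 14.4 CPM, and Ptprc, which encodes CD45, lay at 0.0933 to 2.26 CPM. Of the leukocyte markers 2 were at 0 throughout WT sham and 3 throughout KO sham. In bulk samples such as these, fewer cells of a type and less RNA per cell cannot be told apart.

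The promoters of these genes were searched for the p53 half-site, the 10-base consensus that binds a p53 dimer. RefSeq promoter windows on build GRCm38.p6 (mm10), from 250 bases before to 50 bases after a transcription start, were at hand for 28 of the 37 genes. At least 1 half-site without mismatch, on a motif that reads the same on both strands, lay in a window of 12 of the 28 genes (42.9%), against 9.55% of all 27025 genes with a window. A gene counted if any of its windows held a match, so genes with more windows had more chances of 1. The network includes genes that p53 is known to activate, so its shares are a description. No window of the 28 held 2 perfect half-sites within 13 bases of each other (0.074% of all genes). With 1 mismatch allowed over the 20 positions, a definition chosen after the windows had been seen, 5 of the 28 genes (17.9%) had such a full site, against 1.24% of all genes. Many known p53 sites lie in first introns or farther upstream and fall outside these windows. The 5 sites are shown because they are the closest matches to a p53 site among the genes that were higher in KO after TAC. Capitals mark the 2 half-sites, each sequence is given 5′ to 3′ on the strand of its gene, and each matches the consensus at 19 of 20 positions.
Bax promoter (chr7:45467050-45467148, minus strand): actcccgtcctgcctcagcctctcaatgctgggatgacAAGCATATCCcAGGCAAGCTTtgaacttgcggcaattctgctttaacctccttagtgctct
Rps27l promoter (chr9:66946256-66946355, plus strand): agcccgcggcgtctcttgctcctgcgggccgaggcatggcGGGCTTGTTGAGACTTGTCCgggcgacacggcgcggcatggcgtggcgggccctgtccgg
Ccng1 promoter (chr11:40755422-40755521, minus strand): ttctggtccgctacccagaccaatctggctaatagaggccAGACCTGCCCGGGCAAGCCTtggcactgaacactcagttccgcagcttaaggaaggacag
Polk internal start (chr13:96519358-96519437, minus strand): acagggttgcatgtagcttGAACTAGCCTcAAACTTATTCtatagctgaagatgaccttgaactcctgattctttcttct
Gtse1 promoter (chr15:85859905-85859995, plus strand): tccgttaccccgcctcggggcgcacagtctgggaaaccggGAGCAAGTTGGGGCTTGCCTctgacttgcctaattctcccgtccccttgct
In Gtse1 the site lies across the transcription start, and in the other 4 it lies before the start, from base -231 at its farthest in Polk to base -98 at its nearest in Rps27l. Positions are counted from the start that RefSeq gives for each window. Polk, Rps27l and Gtse1 have 2 windows each, and in each of these genes the site lies at the start farther into the gene. The Polk start lies deep inside the gene as counted (chr13:96480689-96542485), and the window at its 5′ end (chr13:96542530-96542829) held no half-site. The match is a description of these letters and not evidence of binding.

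Among p53 and its controllers, 6 of 7 genes were higher in KO than in WT after TAC and 4 of 7 after sham, and none was lower. Over all genes 14.8% were called higher and 15% lower after TAC, and 4.57% and 4.63% after sham. Trp53 itself (chromosome 11, 69580359 to 69591873) stood at 59.3, 70.7 and 62.5 CPM in WT sham, 69.8, 65.7, 55.2, 63.4 and 69.96 in WT TAC, 78.97, 77.6 and 99.3 in KO sham and 96.6, 82.8, 80.9 and 85.6 in KO TAC. The KO libraries lay above all WT libraries of the same surgery. KO exceeded WT by a log2 fold change of 0.42 ± 0.09 after TAC (adjusted p = 0.00171, edgeR) and 0.39 ± 0.12 after sham (adjusted p = 0.0429, edgeR), the latter lost in 13 of 23 alternative analyses. TAC left it at 0.03 ± 0.11 in KO and 0.00 ± 0.11 in WT, neither called.

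Mdm2 (chromosome 10, 117688905 to 117710716), the ubiquitin ligase that degrades p53 and is itself a p53 target, was at 67.2, 70.2 and 86.5 CPM in WT sham, 63.98, 67.6, 63.4, 67.2 and 65.6 in WT TAC, 85.9, 112 and 87.2 in KO sham and 151, 134, 151 and 164 in KO TAC. All 4 KO TAC libraries were above every other library. KO exceeded WT by 1.19 ± 0.09 after TAC (a fold of 2.29, adjusted p = 2.24e-09) and by 0.40 ± 0.11 after sham (adjusted p = 0.0333), where KO sham 348 lay just under WT sham 133. The call after sham was lost without WT sham 131 or 132 or KO sham 349, and with the sham libraries fitted alone (highest adjusted p = 0.218). Mdm4, a relative of Mdm2 that binds and inhibits p53, was at 92.9, 86.1 and 101 CPM in WT sham, 60.4, 95.1, 59.8, 56.8 and 66.5 in WT TAC, 107, 117 and 86.6 in KO sham and 84.6, 80.9, 90.7 and 85.98 in KO TAC. Its libraries overlapped between all groups, and it was called higher in KO than WT after TAC only (0.33 ± 0.12), a call lost in 8 refits that left out 1 library (highest adjusted p = 0.109, edgeR).

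Trp53inp1, a nuclear protein that promotes p53 phosphorylation and cell death, showed one of the clearest genotype differences of this group. It was at 41.97, 54.1 and 42.1 CPM in WT sham, 49.5, 52.95, 39.8, 44.3 and 45.8 in WT TAC, 136, 136 and 94.4 in KO sham and 145, 172, 168 and 134 in KO TAC. The 7 KO libraries were above the 8 WT libraries, with a log2 fold change of 1.38 ± 0.15 after sham and 1.74 ± 0.11 after TAC, and TAC in KO gave an uncalled 0.34 ± 0.13. Gtse1, a microtubule-associated protein of G2 and S phase that carries p53 out of the nucleus, was low in WT. Its levels were 1.89, 2.81 and 0.752 CPM in WT sham, 1.71, 2.87, 2.33, 1.73 and 2.06 in WT TAC, 13.1, 19.4 and 18.1 in KO sham and 32.1, 37.5, 38.2 and 26.8 in KO TAC. No KO library overlapped a WT library, and KO was higher by 2.90 ± 0.29 after sham and 3.96 ± 0.21 after TAC (a fold of 15.6, adjusted p = 9.05e-12).

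Fbxw7, a substrate receptor of a ubiquitin ligase that p53 activates, was at 37.9, 33.5 and 24.8 CPM in WT sham, 32.7, 36.4, 39.5, 29.7 and 29.4 in WT TAC, 43.6, 36.1 and 29.2 in KO sham and 43.9, 44.3, 55.8 and 41.4 in KO TAC. It was called higher in KO after TAC (0.46 ± 0.13) and the call was lost without KO TAC 353 (adjusted p = 0.0555, edgeR). Ppm1d, the phosphatase Wip1 that switches p53 off and is a p53 target, passed in none of the 5 comparisons; its libraries spread from 28.7 to 43.9 CPM with all groups overlapping.

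**Figure D2:**
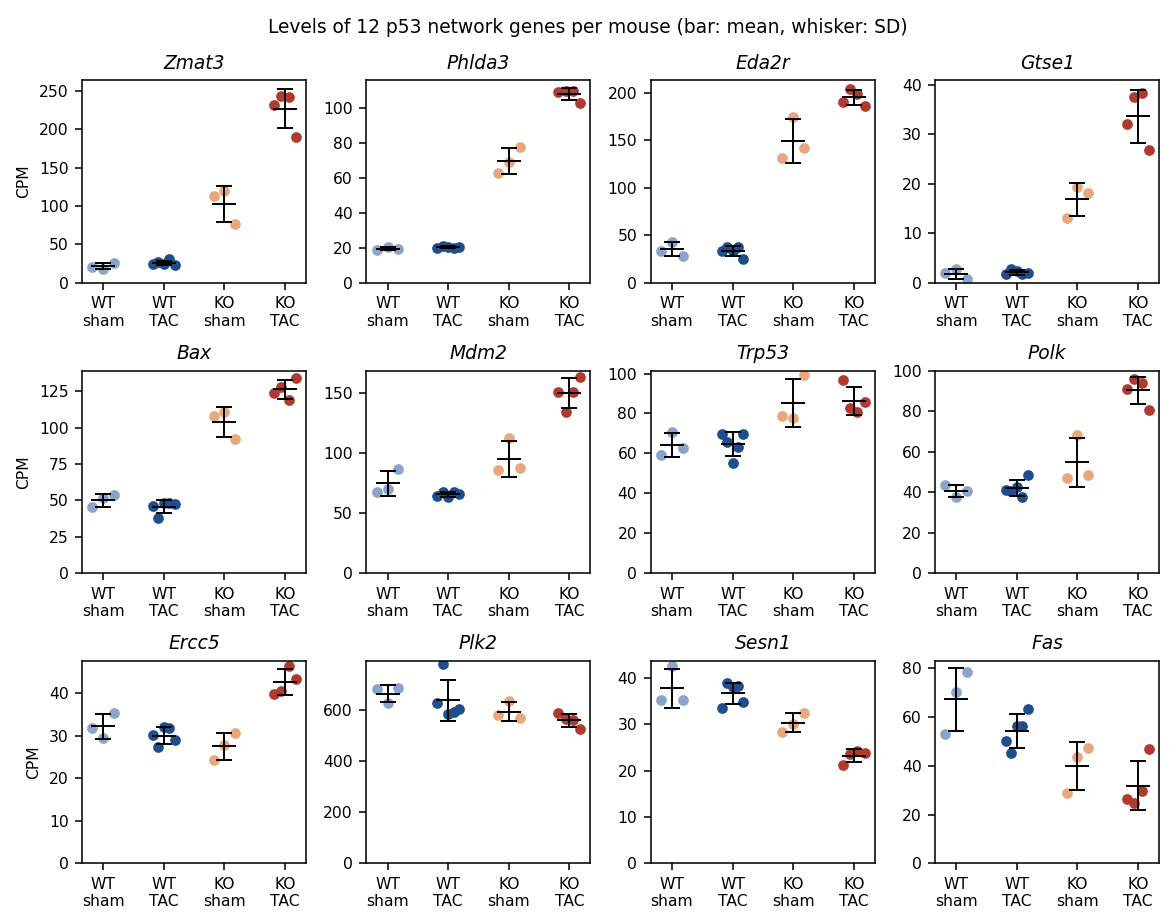
CPM of 12 genes in each mouse (points), with the group mean (bar) and SD (whisker), on linear axes that start at 0. Zmat3, Phlda3, Eda2r, Gtse1 and Bax separate KO from WT without overlap, Polk and Ercc5 separate the KO TAC mice from all others, Plk2 shows no such separation, and Sesn1 is lowest in KO TAC.

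Genes of cell death made up 11 of the 37. After TAC 9 were higher in KO than in WT and 1 lower, beside 14.8% and 15% of all genes. After sham 7 were higher and 1 lower, beside 4.57% and 4.63%. Eda2r (chromosome X, 97333841 to 97377209), a receptor of the tumour necrosis factor family for ectodysplasin A2, was at 33.8, 43.3 and 28.6 CPM in WT sham, 33.6, 38.2, 33.1, 38.3 and 24.6 in WT TAC, 131, 175 and 142 in KO sham and 191, 204, 199 and 187 in KO TAC. Every KO library was above every WT library, by 2.02 ± 0.15 after sham and 2.53 ± 0.11 after TAC (a fold of 5.78, adjusted p = 9.17e-13, edgeR). Phlda3 (chromosome 1, 135766085 to 135769134), which competes with Akt for membrane lipids and so restrains survival signalling, was at 18.7, 20.5 and 19.6 CPM in WT sham, 20.1, 21.1, 20.8, 19.99 and 20.6 in WT TAC, 62.8, 69.2 and 77.5 in KO sham and 109, 109.9, 109.6 and 103 in KO TAC. The WT libraries kept within 18.7 to 21.1 CPM, the KO sham libraries within 62.8 to 77.5 and the KO TAC libraries within 103 to 109.9. KO exceeded WT by 1.83 ± 0.11 after sham and by 2.40 ± 0.08 after TAC (a fold of 5.26, adjusted p = 6.63e-15, edgeR).

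Bax, the pore-forming protein of the mitochondrial outer membrane, was at 45.3, 51.3 and 53.4 CPM in WT sham, 45.8, 37.8, 48.4, 48.1 and 47.8 in WT TAC, 108, 111 and 92.1 in KO sham and 124, 128, 119 and 134 in KO TAC. KO and WT did not overlap, and the log2 fold change was 1.08 ± 0.11 after sham and 1.47 ± 0.09 after TAC. Aen, a nuclease that p53 induces during apoptosis, was at 11.7, 14.9 and 11.3 CPM in WT sham, 9.12, 10.8, 12.9, 11.8 and 12.8 in WT TAC, 26.6, 36.9 and 18.9 in KO sham and 45.1, 52.5, 42.6 and 47.8 in KO TAC. The KO libraries were above all WT libraries, by 1.09 ± 0.21 after sham and 2.04 ± 0.16 after TAC. Apaf1, the scaffold of the apoptosome, was at 74.04, 69.9 and 66.2 CPM in WT sham, 85.7, 85.2, 63.8, 75.5 and 83.3 in WT TAC, 134, 101 and 76.1 in KO sham and 127, 131, 142 and 138 in KO TAC. It was higher in KO by 0.78 ± 0.12 after TAC and by 0.56 ± 0.15 after sham, the latter lost in 6 alternatives, among them without KO sham 348, whose level was the highest of its group.

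Bbc3 (Puma), a BH3-only activator of Bax, was at 17.3, 17.2 and 18.8 CPM in WT sham, 21.3, 17.2, 20.2, 15.8 and 17.6 in WT TAC, 32.95, 25.4 and 40.3 in KO sham and 38.99, 26.2, 33.2 and 36.6 in KO TAC. Its excess in KO was of like size after sham (0.90 ± 0.19) and TAC (0.87 ± 0.14). Ei24, an endoplasmic reticulum protein induced by p53, was at 71.5, 77.4 and 85.8 CPM in WT sham, 90.8, 83.2, 85.9, 91.9 and 88.8 in WT TAC, 118, 139 and 103 in KO sham and 135, 136, 136 and 118 in KO TAC. KO exceeded WT by 0.65 ± 0.11 after sham and 0.58 ± 0.08 after TAC, with no overlap after either surgery. Tnfrsf10b, the mouse receptor for the death ligand TRAIL, was at 39.8, 42.95 and 53.4 CPM in WT sham, 38.01, 40.4, 43.9, 43.2 and 45.4 in WT TAC, 50.4, 53.96 and 70.5 in KO sham and 64.2, 59.2, 56.5 and 61.6 in KO TAC. It was called after TAC (0.52 ± 0.10) and not after sham (0.40 ± 0.13, adjusted p = 0.056, edgeR).

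Pmaip1 (Noxa), another BH3-only gene, was barely detected outside KO TAC. Its levels were 0, 0.0739 and 2.26 CPM in WT sham, 0.824, 0.401, 0.601, 0.182 and 0.275 in WT TAC, 0, 2.13 and 0 in KO sham and 4.39, 5.13, 6.44 and 4.14 in KO TAC, from 4 counts in all 3 WT sham libraries together, 31 in WT TAC, 21 in KO sham (all from KO sham 349) and 202 in KO TAC. It was called higher in KO than WT after TAC (3.36 ± 0.75), and in no other comparison. Fas, the death receptor that p53 induces in many cells, went the other way. It was at 53.005, 70.2 and 78.3 CPM in WT sham, 50.3, 44.99, 56.4, 56.2 and 63.1 in WT TAC, 28.7, 43.5 and 47.3 in KO sham and 26.5, 24.6, 29.5 and 46.8 in KO TAC. KO was lower, with a log2 fold change of -0.78 ± 0.17 after TAC, where KO TAC 354 lay inside the WT range, and of -0.73 ± 0.21 after sham, a call lost in 7 alternatives. Perp, a membrane protein of desmosomes and a p53 target, had at most 14 counts in any library and passed in no comparison.

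Genes of growth arrest and stress signalling were split. After TAC 6 of the 10 were higher in KO than WT and 2 lower, beside 14.8% and 15% of all genes. After sham 4 were higher and none lower, beside 4.57% and 4.63%. Ccng1, cyclin G1, which recruits a phosphatase to Mdm2, was at 40.6, 54.1 and 52.7 CPM in WT sham, 53.4, 46.9, 52.8, 60.1 and 49.2 in WT TAC, 95.6, 109 and 84.7 in KO sham and 138, 153, 137 and 135 in KO TAC. The KO libraries were above all WT libraries, by 1.00 ± 0.13 after sham and 1.42 ± 0.10 after TAC. Zfp365, a zinc finger protein that in mice and humans protects against telomere and replication damage, had 17 counts in WT sham and 37 in WT TAC in all. Its levels were 0.472, 0.887 and 0 CPM in WT sham, 1.01, 0.334, 0.752, 0.273 and 0.412 in WT TAC, 13.96, 11.7 and 1.03 in KO sham and 19.6, 27.1, 30.8 and 20.4 in KO TAC. KO was higher by 3.81 ± 0.65 after sham and 5.36 ± 0.46 after TAC, with KO sham 350, at 5 counts, just above the WT range. Ptprv, a receptor-type phosphatase that p53 induces in mouse, was at 0.66, 0.0739 and 0 CPM in WT sham, 0.19, 0.201, 0.226, 0.545 and 0 in WT TAC, 1.79, 3.96 and 0 in KO sham and 8.37, 8.300, 12.4 and 7.98 in KO TAC. KO TAC was above all other libraries (5.20 ± 0.63 against WT TAC), while KO sham 350 was at 0 and the difference after sham was not called (2.66 ± 0.89, adjusted p = 0.0643, edgeR).

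Psrc1 and Ckap2 encode spindle-associated proteins and, with Gtse1, belong to mitosis as well as to lists of p53 targets. Psrc1 was at 0.849, 0.296 and 0 CPM in WT sham, 0.443, 0.669, 0.526, 0.727 and 0.275 in WT TAC, 3.24, 3.55 and 2.47 in KO sham and 4.55, 4.57, 6.75 and 3.56 in KO TAC. Ckap2 was at 4.24, 2.44 and 4.51 CPM in WT sham, 4.43, 5.62, 1.65, 2.64 and 2.199 in WT TAC, 25.5, 22.9 and 11.5 in KO sham and 29.1, 26.8, 20.7 and 22.4 in KO TAC. Both were higher in every KO library than in the WT libraries of the same surgery, Psrc1 by 2.60 ± 0.61 after sham and 3.15 ± 0.43 after TAC and Ckap2 by 2.56 ± 0.39 and 2.86 ± 0.28. Markers of proliferation moved with them. After TAC 16 of 16 were higher in KO than WT and after sham 12 of 16, beside 14.8% and 4.57% of all genes. Their summed level was 82.6 to 99.4 CPM in WT sham, 64.2 to 149 in WT TAC, 177 to 329 in KO sham and 379 to 533 in KO TAC, with Mki67 at a mean of 26.4 CPM in WT TAC and 139.6 in KO TAC. No marker of this list was at 0 in every library of a group. The part of proliferation in the levels of Gtse1, Psrc1 and Ckap2 was not tested.

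Sesn1, sestrin 1, a stress protein that restrains mTOR signalling and a p53 target in many cells, was lower rather than higher in KO. It was at 35.3, 42.7 and 35.4 CPM in WT sham, 33.5, 38.8, 37.97, 38.3 and 34.9 in WT TAC, 28.4, 30.1 and 32.5 in KO sham and 21.1, 23.7, 24.3 and 23.8 in KO TAC. The 4 KO TAC libraries were the lowest of all 15, and KO differed from WT by -0.66 ± 0.10 after TAC (adjusted p = 3.76e-05, edgeR) and an uncalled -0.34 ± 0.13 after sham. Igfbp7, a secreted protein that binds insulin-like growth factors and is abundant in endothelium, was at 431, 464 and 477 CPM in WT sham, 649, 533, 598, 609 and 560.1 in WT TAC, 396, 442 and 376 in KO sham and 547, 461, 442 and 521 in KO TAC. It was called lower in KO than WT after TAC (-0.26 ± 0.08), with overlapping libraries, and the call was lost without WT TAC 134 or KO TAC 352 or 353 (highest adjusted p = 0.0884, edgeR).

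Plk3, Btg2 and Plk2 are p53 targets that are also immediate early genes, induced by growth factors and by tissue dissociation. Plk3, a stress-activated kinase, was at 60.1, 60.5 and 82.02 CPM in WT sham, 40.3, 60.1, 47.9, 33.4 and 60.2 in WT TAC, 63.3, 72.4 and 70.1 in KO sham and 76.9, 67.7, 58.2 and 92.3 in KO TAC. It was called higher in KO after TAC (0.61 ± 0.15), although the libraries overlapped. Btg2, an antiproliferative cofactor of mRNA decay, spread from 448 to 834 CPM over the 15 libraries and Plk2, a polo-like kinase, from 525 to 777 CPM, and neither was called in any comparison. The 12 immediate early genes summed to 5738 to 8678 CPM in WT sham, 4689 to 7073 in WT TAC, 4600 to 5759 in KO sham and 4411 to 5603 in KO TAC. Of these 12 genes 5 were lower in KO than WT after sham, beside 4.63% of all genes. After TAC 4 of the 12 were lower and 2 higher, beside 15% and 14.8%. With their mean log2 level as a covariate, all 32 calls on the 37 genes in KO TAC against WT TAC were kept. How many calls on all genes were kept in that comparison was not computed. In KO sham against WT sham 5 of the 21 calls were lost (Trp53, Apaf1, Fas, Psrc1 and Polk), and the calls over all genes fell from 1148 to 450.

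The 4 genes of genome maintenance did not move as one. Polk, a DNA polymerase that copies past damaged bases, was at 43.4, 37.7 and 40.6 CPM in WT sham, 41.3, 40.8, 42.5, 37.6 and 48.7 in WT TAC, 46.9, 68.5 and 48.7 in KO sham and 91.1, 96.1, 93.95 and 80.8 in KO TAC. KO exceeded WT by 1.11 ± 0.10 after TAC and by 0.44 ± 0.14 after sham, the latter lost in 13 alternatives. Ercc5, the endonuclease that cuts 3′ of a lesion in nucleotide excision repair, was at 31.9, 29.6 and 35.4 CPM in WT sham, 30.2, 27.3, 32.1, 31.7 and 29.000 in WT TAC, 24.2, 27.8 and 30.6 in KO sham and 39.8, 40.6, 46.5 and 43.3 in KO TAC. It was higher in KO after TAC (0.50 ± 0.10) and not called after sham (-0.21 ± 0.13, adjusted p = 0.359, edgeR). Xpc, which recognises lesions at the start of the same repair pathway, was at 24.4, 27.6 and 16.6 CPM in WT sham, 23.6, 25.3, 25.9, 22.7 and 20.1 in WT TAC, 7.82, 17.5 and 9.67 in KO sham and 19.7, 21.9, 23.8 and 19.96 in KO TAC. It was lower in KO sham than WT sham (-1.03 ± 0.23), where KO sham 348 and 350 were the lowest and KO sham 349 lay within the WT range, and did not pass after TAC (-0.14 ± 0.17). Without KO sham 348 and 350 together the log2 fold change after sham was -0.49 and the call was lost (adjusted p = 0.26, edgeR), and it was also lost without WT sham 132. Rrm2b, the p53-inducible subunit of ribonucleotide reductase, was at 43.9, 44.5 and 51.2 CPM in WT sham, 43.3, 37.9, 42.9, 46.5 and 43.3 in WT TAC, 41.8, 43.3 and 32.3 in KO sham and 31.5, 36.6, 31.2 and 37.5 in KO TAC. It was lower in KO after TAC (-0.33 ± 0.10), and the call was lost without WT TAC 137 or KO TAC 351 or 353.

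The remaining 5 targets were all higher in KO than in WT after TAC, and 3 of them after sham. Over all genes 14.8% were called higher after TAC and 4.57% after sham. Zmat3 (chromosome 3, 32334794 to 32365665), an RNA-binding protein of splicing and mRNA decay, was at 20.3, 18.04 and 25.6 CPM in WT sham, 25.1, 26.5, 23.9, 30.5 and 22.8 in WT TAC, 113, 119 and 75.9 in KO sham and 231, 244, 242 and 189.9 in KO TAC. The KO sham libraries were above all WT libraries and the KO TAC libraries above all KO sham libraries. The log2 fold change was 2.37 ± 0.17 after sham and 3.13 ± 0.12 after TAC, a fold of 8.78 (adjusted p = 6.09e-14, edgeR). Pvt1, a long noncoding RNA next to Myc with a p53 site in its gene, was at 1.51, 2.51 and 1.505 CPM in WT sham, 0.633, 1.87, 1.43, 0.636 and 2.34 in WT TAC, 11.2, 10.9 and 3.496 in KO sham and 23.5, 28.6, 40.6 and 21.2 in KO TAC. KO exceeded WT by 2.14 ± 0.46 after sham and 4.42 ± 0.34 after TAC. Ak1, adenylate kinase 1, was at 7.36, 9.09 and 4.51 CPM in WT sham, 9.76, 6.89, 8.04, 7.63 and 7.83 in WT TAC, 11.4, 11.9 and 9.87 in KO sham and 23.5, 32.4, 30.8 and 18.1 in KO TAC. It was called after TAC (1.71 ± 0.18) and not after sham (0.53 ± 0.25), although no KO sham library overlapped WT sham.

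Dcxr, a carbonyl reductase of xylulose metabolism, was at 6.41, 6.95 and 9.03 CPM in WT sham, 5.64, 6.15, 8.04, 5.997 and 4.81 in WT TAC, 23.9, 14.3 and 15.8 in KO sham and 18.1, 18.9, 18.4 and 13.97 in KO TAC. KO was higher by 1.36 ± 0.25 after sham and 1.49 ± 0.19 after TAC. Rps27l, a relative of a ribosomal protein that binds Mdm2, was at 22.4, 26.1 and 28.6 CPM in WT sham, 20.8, 23.5, 23.3, 21.2 and 21.3 in WT TAC, 26.1, 32.7 and 23.4 in KO sham and 37.7, 47.4, 37.4 and 40.8 in KO TAC. It was higher in KO after TAC (0.89 ± 0.12) and not called after sham (0.14 ± 0.15). Its counts are uncertain, since whether it shares reads with its close paralogue Rps27 was not tested.

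**Figure D3:**
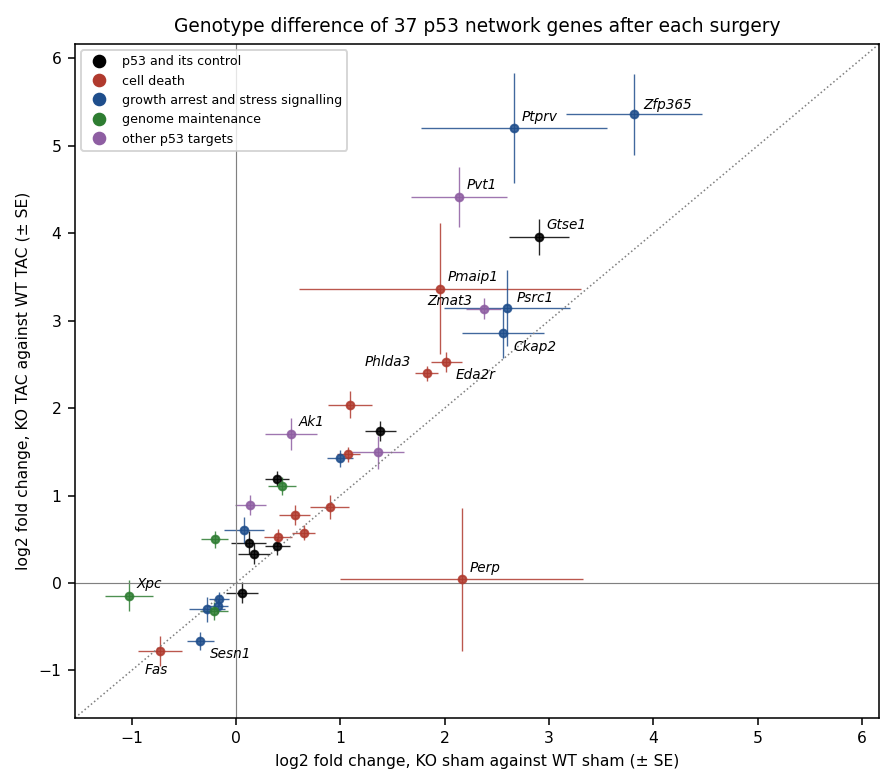
Log2 fold change of KO against WT after sham (horizontal axis) and after TAC (vertical axis) for each of the 37 genes, with SE on both axes, coloured by role; the dotted line marks equal changes. Most genes lie above the dotted line in the upper right, Fas and Sesn1 lie in the lower left, and Perp lies far to the right with wide errors from low counts.

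Both genotype comparisons came from separate mice, and their log2 fold changes ranked the 37 genes alike (Spearman's rho = 0.89, Pearson's r = 0.90, across genes that are not independent replicates and in libraries that share the same 15-library fit). The 37 genes were chosen by their levels in these same groups, so the likeness is a description and no replication. It was not computed over all genes. In all, 19 genes were higher in KO after both surgeries, 9 after TAC without a call after sham, and 1, Fas, was lower after both. The share of all genes with the same joint calls was not computed, so these counts have no background beside them. KO and WT libraries did not overlap for 26 genes higher and 2 lower in KO after TAC, beside 15% and 15.7% of all genes, and for 19 higher and 3 lower after sham, beside 10.3% and 12.1% of all genes. Markers of endothelium and of other cells differed between the same groups. Over all genes 14.8% were called higher and 15% lower in KO after TAC, and 4.57% and 4.63% after sham. After TAC 6 of 10 endothelial markers were lower and 1 higher in KO than in WT, and their sum was 13266 to 14024 CPM in KO TAC against 15030 to 16462 in WT TAC. Of 5 tested leukocyte markers 1 was higher. After TAC 7 of 10 fibroblast markers and 4 of 11 tested cardiomyocyte markers were lower in KO than in WT, and 3 of 9 tested pericyte and smooth muscle markers were higher and 2 lower. The fibroblast markers summed to 283 to 357 CPM in WT TAC and 100.2 to 189 in KO TAC, and the cardiomyocyte markers to 237 to 273 and 118 to 195 CPM. The pericyte and smooth muscle markers summed to 133 to 186 CPM in WT TAC and 119 to 178 CPM in KO TAC, with 1 of them at 0 throughout WT TAC. After sham 3 of 9 tested pericyte and smooth muscle markers were higher in KO and none lower, with sums of 132 to 170 CPM in WT sham and 164 to 259 in KO sham. Among the 10 endothelial markers 2 passed as higher and 2 as lower in KO sham, and a single fibroblast marker, 1 of 10, was lower. The sums after sham overlapped between the genotypes for endothelial, fibroblast, cardiomyocyte and pericyte markers. Their part in the levels of the 37 genes was not tested.

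In WT mice few of the 37 genes passed after TAC. Of the 37 genes 1, Igfbp7, rose in WT TAC against WT sham (0.37 ± 0.09, adjusted p = 0.0235, edgeR), beside 1.6% of all genes called higher, and none fell, beside 0.986%. That call was lost in 7 alternatives, among them each refit without 1 of the 3 WT sham libraries (highest adjusted p = 0.186, edgeR). At an unadjusted p under 0.05 there were 4 of the 37, beside 15% of all genes. The WT sham and WT TAC libraries overlapped for the other 36, and libraries without overlap were higher after TAC for 7.91% and lower for 6.71% of all genes. Zmat3 had an uncalled 0.37 ± 0.15, Mdm4 -0.44 ± 0.14, Plk3 -0.43 ± 0.17 and Mdm2 -0.15 ± 0.10. Beside this, 6 of 10 fibroblast markers rose in the same comparison, from a summed 97.4 to 162 CPM in WT sham to 283 to 357 CPM in WT TAC. Of 11 tested cardiomyocyte markers 2 rose and 1 fell, with sums of 299 to 350 CPM in WT sham and 237 to 273 in WT TAC, and 2 of 9 tested pericyte and smooth muscle markers fell. Their part in the levels of the 37 genes was not tested.

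In KO mice TAC raised 15 of the 37 genes and lowered Sesn1, beside 4.65% of all genes called higher and 4.94% lower. The counts by role were 2 of 7 among p53 and its controllers (Mdm2 and Gtse1), 2 of 11 for cell death (Aen and Phlda3), 4 of 10 for growth arrest (Ccng1, Zfp365, Ptprv and Igfbp7), 3 of 4 for genome maintenance (Polk, Xpc and Ercc5) and 4 of 5 of the remaining targets (Zmat3, Rps27l, Pvt1 and Ak1). Zmat3 rose by 1.13 ± 0.13, from a mean of 103 ± 23.5 to 227 ± 25.1 CPM (SD, n = 3 and 4, adjusted p = 3.24e-05 by edgeR). Mdm2 rose by 0.65 ± 0.10, Phlda3 by 0.63 ± 0.09, Ak1 by 1.24 ± 0.21, Polk by 0.72 ± 0.12 and Ercc5 by 0.63 ± 0.12. Pvt1 rose by 1.69 ± 0.35 and Gtse1 by 1.00 ± 0.21. Sesn1 had a log2 fold change of -0.38 ± 0.12, a call lost in 16 alternatives. The call on Igfbp7 was lost in 12 alternatives and that on Xpc in 4. Xpc rose from a mean of 11.7 CPM in KO sham to 21.3 in KO TAC, beside 22.9 in WT sham and 23.5 in WT TAC. Without KO sham 348 and 350 together its log2 fold change was 0.29. Bax (0.28 ± 0.10, adjusted p = 0.0756) and Eda2r (0.38 ± 0.13, adjusted p = 0.0566) did not pass in edgeR, although all 4 KO TAC libraries lay above the 3 KO sham libraries for both. Ckap2 (0.29 ± 0.30), Dcxr (-0.05 ± 0.21) and Bbc3 (0.05 ± 0.16) did not pass either, and their libraries overlapped.

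These changes after TAC rest in part on KO sham 348 and 350, the libraries with many genes at 0. KO sham 350 was the lowest KO library for Zmat3, Pvt1, Zfp365, Aen and Ckap2. With KO sham 349 as the only KO sham library, its spread assumed to be like that of the other groups, 4 of the 37 genes were called in KO TAC against KO sham: Zmat3 (0.94 ± 0.15), Ak1 (1.15 ± 0.29), Phlda3 (0.65 ± 0.11) and Ercc5 (0.62 ± 0.15). All genes called fell from 1196 to 191 in that refit. With only the KO libraries fitted the count for the 37 genes was 9, and with limma voom it was also 9. KO sham 349 lay below all 4 KO TAC libraries for Zmat3, Mdm2, Phlda3, Polk, Ak1, Pvt1 and Gtse1. The KO sham libraries and the KO TAC libraries did not overlap for 19 genes higher and 1 lower after TAC, beside 9.18% and 8.41% of all genes. Over all genes 4.65% were called higher and 4.94% lower in KO TAC against KO sham. Of the proliferation markers 3 of 16 rose with TAC in KO. Of the cardiomyocyte markers 4 of 11 tested fell, from a summed 253 to 361 CPM in KO sham to 118 to 195 CPM in KO TAC. Of the endothelial markers 3 of 10 fell, with sums of 14795 to 16032 CPM in KO sham and 13266 to 14024 in KO TAC. Of the pericyte and smooth muscle markers 3 of 9 tested fell, and of the fibroblast markers 2 of 10 rose and 1 fell. Their part in these changes was not tested.

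**Figure D4:**
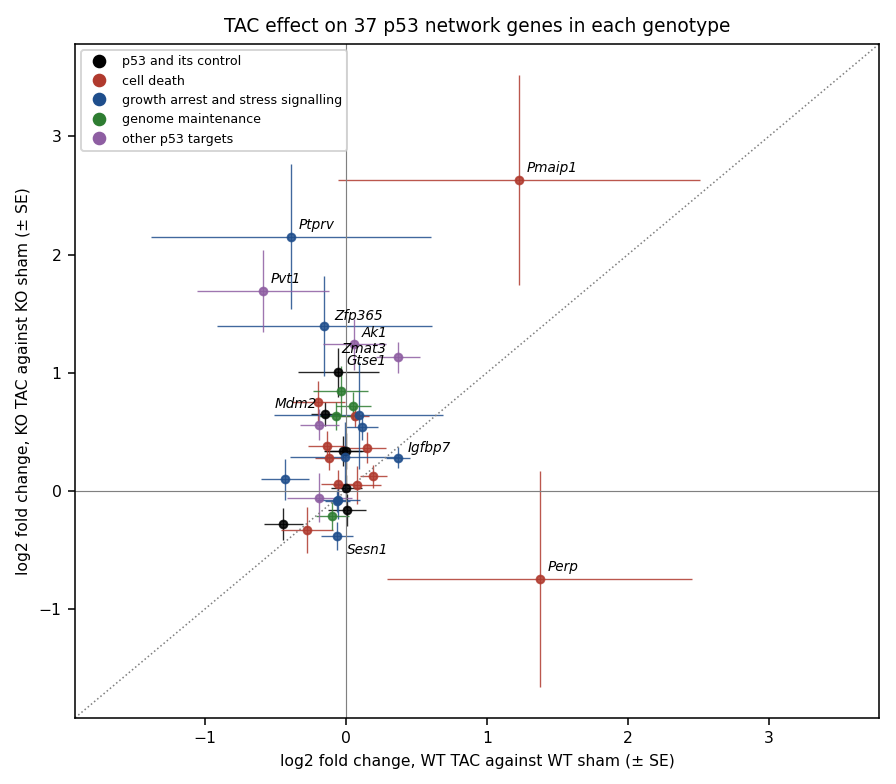
Log2 fold change of TAC against sham in WT (horizontal axis) and in KO (vertical axis) for each of the 37 genes, with SE on both axes, coloured by role; the dotted line marks equal changes. Most genes lie near 0 along the WT axis and spread upward along the KO axis; Pmaip1, Ptprv, Zfp365 and Perp carry wide errors from low counts.

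Whether TAC acted differently in KO and WT was tested as the difference of both TAC effects. Of the 37 genes 3 passed, all with a larger effect in KO, beside 0.2% of all genes called in that direction, 0.489% in the other and 0.69% in either. They were Mdm2 (0.80 ± 0.14, adjusted p = 0.0138), Ercc5 (0.70 ± 0.16, adjusted p = 0.0467) and Phlda3 (0.57 ± 0.13, adjusted p = 0.0488), by edgeR. The call on Mdm2 was lost only without KO sham 348 and 350 together (adjusted p = 0.192), that on Ercc5 in 15 alternatives and that on Phlda3 in 16. Without KO sham 349 the count was 11 and with DESeq2 9, with limma voom 1, and without KO sham 348 and 350 together 0. It was 1 in each refit that left out a WT sham library, WT TAC 134, 136, 137 or 138, KO sham 348, or KO TAC 351, 352 or 353. Counts over all genes moved too. They were 86 with edgeR, 314 with DESeq2, and 25 to 764 with edgeR when 1 library was left out. For Zmat3 the difference was 0.76 ± 0.20 (adjusted p = 0.08), for Pvt1 2.28 ± 0.58 (adjusted p = 0.0734), for Ak1 1.18 ± 0.31 (adjusted p = 0.0774) and for Polk 0.67 ± 0.17 (adjusted p = 0.0774), none of them past the threshold in edgeR.

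**Figure D5:**
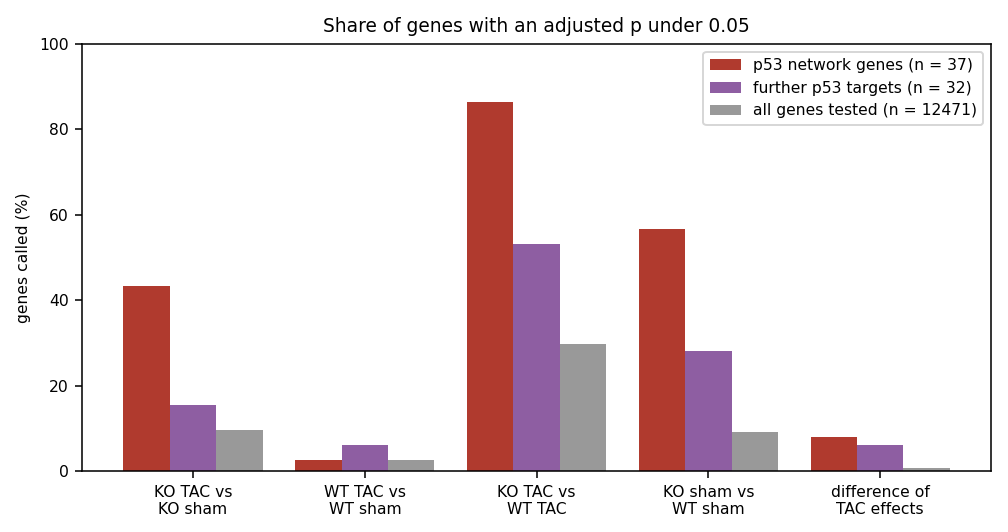
Share of genes with an adjusted p under 0.05 in each of the 5 comparisons, for the 37 p53 network genes, a list of 32 tested further p53 targets and all 12471 genes tested. The bars of the network genes stand at 86.5% and 56.8% in the KO against WT comparisons and at 2.7% for TAC in WT.

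Per kilobase of exon, the scale on which levels of different genes can be compared, Igfbp7, Plk2 and Btg2 were the most abundant of the 37 in every group, and Bax and Rps27l came next. In WT sham they stood at 377, 236, 213, 57.5 and 55.4 CPM per kb, with Trp53 at 34.4. The order of the others shifted with genotype: Zmat3 was 29th of 37 in WT sham (2.74 CPM per kb) and 13th in KO TAC (29.1), Phlda3 moved from 14th (13.3) to 6th (73.5) and Eda2r from 26th (6.06) to 11th (33.6). Fas moved down from 6th (37.3) to 21st (17.7). At the bottom, Ptprv, Perp, Zfp365, Psrc1, Pmaip1, Pvt1 and Gtse1 were all under 1 CPM per kb in WT sham and in WT TAC.

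A further list of 33 genes known as p53 targets, of which 32 were tested, is given beside the 37. In KO TAC against WT TAC 10 were higher and 7 lower, beside 14.8% and 15% of all genes, with a median log2 fold change of -0.03. In KO sham against WT sham 8 were higher and 1 lower, beside 4.57% and 4.63%, with a median of 0.05. In KO TAC against KO sham 4 were higher and 1 lower, beside 4.65% and 4.94%. In WT TAC against WT sham 2 were higher, beside 1.6%, and none lower, beside 0.986%. Gdf15, a stress-induced cytokine, was at 2.45, 1.996 and 3.01 CPM in WT sham, 1.84, 1.34, 2.33, 1.45 and 1.79 in WT TAC, 17.6, 33.5 and 31.1 in KO sham and 82.7, 51.6, 62.5 and 86.4 in KO TAC, and KO exceeded WT by 3.58 ± 0.30 after sham and 5.33 ± 0.22 after TAC. Sesn2, sestrin 2, was at 8.21, 10.8 and 3.76 CPM in WT sham, 7.41, 6.28, 10.000, 7.45 and 6.597 in WT TAC, 44.6, 49.1 and 41.3 in KO sham and 60.7, 59.8, 49.8 and 54.3 in KO TAC. Unlike its relative Sesn1 it was higher in KO, by 2.35 ± 0.20 after sham and 2.89 ± 0.15 after TAC. Cdkn1a, the cyclin-dependent kinase inhibitor p21, was at 194, 268 and 333 CPM in WT sham, 159.8, 194, 322, 176 and 395 in WT TAC, 504, 462 and 509 in KO sham and 741, 698, 694 and 764 in KO TAC. It was higher in KO by 0.92 ± 0.24 after sham and 1.54 ± 0.19 after TAC, with no overlap between genotypes.

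Pidd1, a scaffold of caspase 2 activation, and Epha2, an ephrin receptor, were higher in KO after TAC by 2.06 ± 0.29 and 0.74 ± 0.11. Fbxo22, a ubiquitin ligase subunit, was lower in KO after TAC (-0.78 ± 0.09), from 71.4 ± 4.72 to 41.7 ± 2.03 CPM (SD, n = 5 and 4). Trp53i11, named for its induction by p53, rose with TAC in WT (0.90 ± 0.09) and was lower in KO than WT after TAC (-0.44 ± 0.08).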

How the data were processed

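RNA was measured in 15 libraries of sorted cardiac endothelial cells. The labels' protocols name an RNeasy Plus kit for extraction and a TruSeq kit for the libraries. The aligner was HISAT2 2.1.0 on mm10, per the submitters' processing notes. The authors deposited 1 table of raw counts per gene, made per the file headers with featureCounts 1.6.2, strand setting 2 and the UCSC mm10 annotation; that command sets no option for multimapping reads. The exon length in bases is a further column, other than a measurement, that the authors deposited. All 15 columns matched a sample by name, and 0 were left over.

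The test was edgeR 4.0.16 on these counts, in R 4.3.3: filterByExpr defaults (minimum count 10, total 15), TMM scaling (factors 0.96 to 1.03), 1 coefficient per group over 15 libraries, 11 residual degrees of freedom, two-sided glmQLFTest, Benjamini-Hochberg adjustment over 12471 genes in each of 5 comparisons, threshold 0.05. Errors of log2 fold changes are SEs worked back from the quasi-likelihood test, as the fold change over the square root of its F statistic. That fit includes the spread between mice. Errors of levels are the SD over libraries. The floors of detection cover counting error only. CPM used TMM-scaled library sizes. The fit was tested on simulated data. Nothing says how the mice were bred, so p-values measure the spread between these mice. The labels name 1 batch.

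The 37 genes, their roles, the further lists and the alternatives were chosen with earlier results of these data known. Values are given for each gene called in at least 1 comparison and for Trp53, Mdm2 and Mdm4, and of the further list for the 8 genes with the smallest adjusted p-values, 1 of which is not reported here. By symbol 146 of 150 list entries were found and 4 through RefSeq synonyms, among them Pidd1 (Lrdd). Lists are described by counts and medians, with no set test. Alternatives were RLE factors, DESeq2 1.42.0, no filter, a filter of 5 CPM in 3 libraries, only the groups compared, limma 3.58.1 voom with quality weights, an immediate early covariate, and libraries left out.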

Additional observations from a re-analysis of the deposited data

Results flagged for a closer look

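Among 74 sets of values (37 genes in the 5 WT TAC and in the 4 KO TAC libraries) 9 held a library whose gap to the others passed Dixon's 95% limit, where chance flags about 1 in 20. In WT TAC 135 Mdm4 was at 95.1 CPM, above 56.8 to 66.5 in the other 4 libraries, Plk2 was at 777 CPM, above 582 to 624, and Bax was at 37.8 CPM, below 45.8 to 48.4. In KO TAC 354 Phlda3 was at 103 CPM, below 109 to 110 in the other 3, Ei24 was at 118 CPM, below 135 to 136, Dcxr was at 14.0 CPM, below 18.1 to 18.9, and Btg2 was at 602 CPM, above 478 to 481. Ccng1 was at 153 CPM in KO TAC 352, above 135 to 138, and Ptprv at 12.4 CPM in KO TAC 353, above 7.98 to 8.37.

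The test of the difference between the TAC effects in KO and WT called Mdm2 (0.80 ± 0.14), Ercc5 (0.70 ± 0.16) and Phlda3 (0.57 ± 0.13). Each value is a log2 difference of KO minus WT in edgeR. None of these calls held throughout: that on Mdm2 was lost in 1 alternative, that on Ercc5 in 15 and that on Phlda3 in 16. Without KO sham 348 and 350 together the log2 differences were 0.57, 0.69 and 0.59. The network was chosen above all by the rise of many of its genes in KO TAC over KO sham, so these calls are a description.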

How the results depend on the processing

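Of 73 calls on the 37 genes, 43 held under every alternative that tested them (28 of 32 in KO TAC against WT TAC, 11 of 21 in KO sham against WT sham, 4 of 16 in KO TAC against KO sham, 0 of 1 for TAC in WT and 0 of 3 for the difference), and none reversed. For KO TAC against KO sham the count of the 37 genes was 9 with only the groups compared, 9 with limma voom and 4 without KO sham 348 and 350 together, and of all genes 374, 295 and 191. For WT TAC against WT sham the count of the 37 was 2 without the low-count filter, 3 with voom, 0 with the immediate early covariate and 2 without KO sham 348 and 350, and of all genes 498 with DESeq2, 723 with only the groups compared, 1146 with voom, 151 with the covariate and 695 without KO sham 348 and 350. For KO sham against WT sham it was 11 of the 37 with only the groups compared, and of all genes 289 with only the groups compared, 463 with voom, 450 with the covariate and 394 without KO sham 348 and 350. For the difference it was 9 of the 37 with DESeq2, 6 without the filter, 1 with voom and 0 without KO sham 348 and 350, and of all genes 314 with DESeq2, 174 without the filter and 3 without KO sham 348 and 350. The cause was not tested. Leaving out 1 library at a time gave 12 to 19 of the 37 genes for TAC in KO, 0 to 2 for TAC in WT, 28 to 32 for genotype after TAC, 14 to 21 after sham and 1 to 11 for the difference, and 695 to 2372, 109 to 543, 2868 to 4539, 505 to 2014 and 25 to 764 of all genes. The uncalled change of Trp53 with TAC crossed 0: in WT it was -0.0028 with a filter of 5 CPM, -0.0067 with only the groups compared, -0.027 with voom, -0.0020 without KO sham 348 and 350 and -0.070 to 0.101 without 1 library, in KO -0.033 to 0.157 without 1 library, and for the difference -0.0068 with the covariate and -0.072 to 0.149 without 1 library. No paired analysis was possible because the groups share no replicate numbers. In WT libraries Pmaip1, Ptprv, Perp, Psrc1 and Zfp365 rest on few counts.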
